A study of Mus musculus with 6 samples.

Results

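The negative limb of the circadian clock was examined in the aortic roots of mice. It was represented by 8 genes: the period genes Per1, Per2 and Per3, the cryptochromes Cry1 and Cry2, and the related repressors Ciart, Bhlhe40 and Bhlhe41. The genes were taken as every probe set that the platform annotation gives to 1 of these symbols alone, which yielded 16 of 45037 probe sets and 8 of 18193 genes. The set was chosen by the log2 signals of these same arrays, in that their genotype comparison was already known. The genotype values of the genes are therefore a description, and no test is drawn from them.

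Transcripts were measured on Affymetrix arrays in 3 pools from klotho-deficient mice, which carried 2 mutant copies of Klotho, and in 3 pools from mice with 2 wild-type copies. Each pool combined the aortic roots of 3 mice aged 6 to 6.5 weeks on a C57BL/6J albino background. A root comprised valve leaflets, annulus and some ascending aortic wall. Klotho is the co-receptor for the hormone FGF23, and mice that lack it age early and calcify soft tissues. The labels give neither the sex of the mice nor the hour of dissection. Clock transcripts vary over the day, so a change in level cannot be told apart from a difference in hour or clock phase. This limit applies to every clock gene value below. In such pooled bulk tissue, fewer cells of a type and less RNA per cell cannot be told apart.

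In the mammalian clock, BMAL1 (encoded by Arntl) pairs with CLOCK or NPAS2 and activates genes through E-box sequences. Period and cryptochrome proteins accumulate, return to the nucleus and block this activator. CIART, also called CHRONO, represses the same activator, and BHLHE40 and BHLHE41, also called DEC1 and DEC2, are basic helix-loop-helix repressors that compete for E-boxes. Other elements add to the rhythm. D-boxes are bound by DBP, TEF and HLF and by the repressor NFIL3, and Per1 also responds to glucocorticoid and cyclic AMP signals. In many mouse tissues Cry1 transcripts peak later in the day than those of the period genes.

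Promoter sequence shows which of these elements stand next to each gene. RefSeq promoter windows of mouse build GRCm38.p6 were found for 6 of the 8 genes, the others being Per2 and Bhlhe40. The 250 bases before each annotated start were searched on both strands for the E-box CACGTG, the weaker E' box CACGTT and the D-box TTATGNAA. The stretches that hold the matches are shown because they separate the genes by element. They are written 5′ to 3′ on the strand of the gene, with the matches in capitals and 9 bases on either side; no matches overlap. A match on the opposite strand reads as its reverse complement, so an E' box can appear as AACGTG.
Per1, chr11:69098774-69098941, plus strand: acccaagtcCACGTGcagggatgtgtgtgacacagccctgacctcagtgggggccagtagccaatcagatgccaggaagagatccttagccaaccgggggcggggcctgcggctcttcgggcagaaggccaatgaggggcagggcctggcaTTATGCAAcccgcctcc
Per3, chr4:151044807-151044879, minus strand: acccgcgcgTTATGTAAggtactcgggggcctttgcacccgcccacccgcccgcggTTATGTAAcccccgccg
Cry1, chr10:85185100-85185142, minus strand: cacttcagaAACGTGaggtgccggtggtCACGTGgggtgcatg
Cry2, chr2:92434221-92434244, minus strand: catggtgggAACGTGagggggcgg
Ciart, chr3:95882258-95882353, minus strand: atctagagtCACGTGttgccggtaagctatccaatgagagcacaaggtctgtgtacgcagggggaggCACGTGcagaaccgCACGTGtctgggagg
Bhlhe41, chr6:145865559-145865582, minus strand: tacgttccgCACGTGagctgggtg

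Ciart held 3 E-boxes, which 0.0609% of all 32851 promoter windows of this length matched or exceeded. Per1, Cry1 and Bhlhe41 held 1 E-box each, a motif present in 6.02% of windows. Per3 held no E-box in this window and 2 D-boxes, a count reached by 0.128% of windows. Per1 held 1 D-box, ending 17 bases before the first of its 2 annotated starts, and 3.07% of windows hold at least 1. Cry1 and Cry2 each held 1 E' box (3.85% of windows). Among 12 other clock genes with a window, 1 held an E-box (Tef), 2 held an E' box (Nr1d1 and Rorb) and 0 held a D-box. The second Per1 start had no E-box or D-box but 1 copy of TGACGT, the core of the cyclic AMP response element, which 6.47% of windows hold. Among the other clock genes 1 held TGACGT (Hlf). The ROR element, TAGGTCA or TGGGTCA, was also searched. It was held by 0 of the 6 genes and by 1 other clock gene (Nfil3), beside 5.38% of windows. The Per1 window lies inside the annotated span of the gene, whose longest form starts further upstream. A match is a description of the letters, and absence from these windows says nothing of elements elsewhere.

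**Figure D1:**
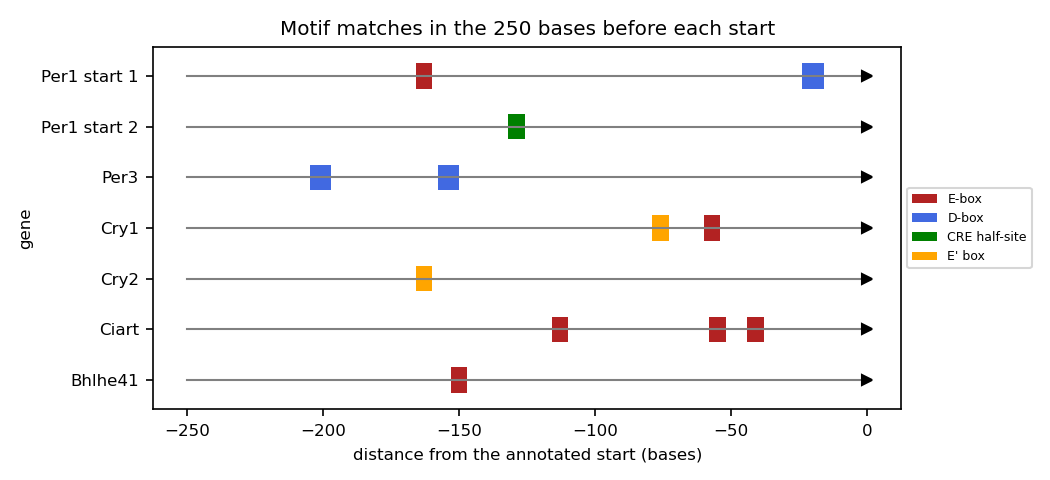
Motif matches in the 250 bases before each annotated start of 6 clock repressor genes, with distance from the start in bases on the horizontal axis and the arrowhead at the start; both annotated Per1 starts are drawn. Ciart has 3 E-boxes, Per3 has 2 D-boxes and Per1 has 1 of each at its first start.

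Values are linear array signals as the authors deposited them, in arbitrary units, and differences are log2 signal in klotho-deficient minus wild type, with the standard error from limma (3 arrays per genotype). Background was set by 27 control probe sets for Bacillus genes, absent from the mouse, which reached 161.8 at most. Where a gene has several probe sets, the one with the highest mean log2 signal stands for it, and the others are given beside it. Signals of different probe sets are not comparable in level.

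Per3 was higher in klotho-deficient roots on all of its 6 probe sets. Its brightest probe set, 1421087_at, read 4172.4, 4308.1 and 2287.1 in klotho-deficient replicates 1 to 3, against 1284.1, 1155.3 and 822.7 in wild type. The genotypes did not overlap, and klotho-deficient replicate 3 lay nearest to wild type. The difference was 1.69 ± 0.33 (95% interval 0.90 to 2.49), a 3.23-fold higher signal. The other 5 probe sets gave differences of 1.29 to 2.04, and 4 of them did not overlap between genotypes. The exception was 1421086_at, whose signals of 638.1, 502.8 and 64.5 in klotho-deficient roots and 99.6, 167.1 and 39.6 in wild type fell below background on 1 klotho-deficient and 2 wild-type arrays. Probe set 1441445_at separated the genotypes only narrowly, at 295.5 in klotho-deficient replicate 3 against 284.1 in wild-type replicate 1.

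Per2 was also higher, but its 3 probe sets gave different sizes. Probe set 1417602_at read 1593.7, 2094.8 and 1002.3 in klotho-deficient roots and 194.2, 583.6 and 402.2 in wild type. The arrays did not overlap and the difference was 2.07 ± 0.48 (95% interval 0.90 to 3.23). Probe set 1417603_at read 1301.8, 1122.8 and 667.2 against 476.2, 401.6 and 654.9 in wild type, so that klotho-deficient replicate 3 and wild-type replicate 3 nearly met. Its difference was 0.99. On 1457350_at the genotypes overlapped, at 870.4, 991.5 and 501.5 in klotho-deficient roots and 334.0, 479.0 and 725.7 in wild type, with a difference of 0.63. The mean of the 3 probe sets gave 1.23. The log2 difference for Per2 thus depends on the probe set, from 0.63 to 2.07.

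Per1, a period gene that glucocorticoids are known to induce, has 1 probe set (1449851_at). It read 2892.1, 3021.1 and 3914.2 in klotho-deficient roots, against 966.0, 1133.5 and 2475.4 in wild type. The genotypes did not overlap as deposited, and wild-type replicate 3 lay close below the klotho-deficient arrays. The difference was 1.22 ± 0.39 (95% interval 0.27 to 2.17). Without wild-type replicate 3 it was 1.63, and after each array was centred on its median Per1 overlapped between genotypes. Fkbp5, a chaperone induced by glucocorticoids, set the same array apart. It read 4837.8 to 5637.9 in klotho-deficient roots, against 1017.2 and 1335.6 in wild-type replicates 1 and 2 and 5267.4 in wild-type replicate 3. That array also had a 3′ to 5′ Gapdh control ratio of 7.18, against 3.23 to 4.08 on the other arrays, while the Actb ratio was 1.07 to 1.18 on all 6. The part of either in the Per1 difference was not tested.

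**Figure D2:**
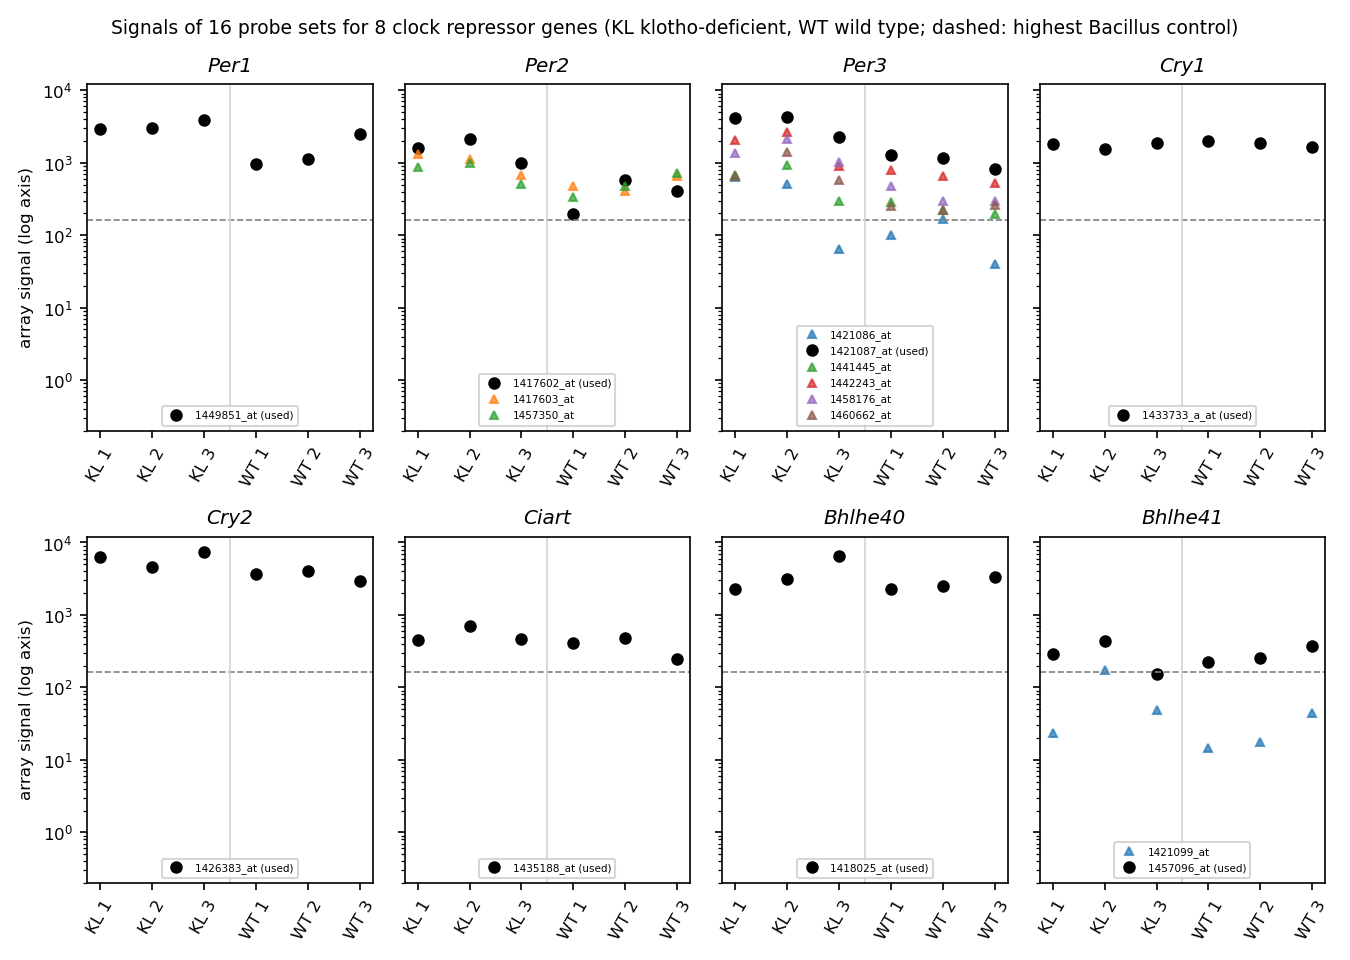
Array signal on a log axis for the 16 probe sets of the 8 genes, with 1 point per array, klotho-deficient (KL) left of wild type (WT). Black circles are the probe set used for the gene, triangles are its other probe sets, and the dashed line is the highest Bacillus control signal, 161.8. Per1, Cry2, 2 of the 3 Per2 probe sets and 5 of the 6 Per3 probe sets separate the genotypes. Some do so narrowly, as Per1 at wild-type replicate 3 and Cry2 at wild-type replicate 2, and Cry1 overlaps throughout.

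The cryptochromes are given in turn, with 1 probe set each. Cry2 (1426383_at) read 6278.4, 4539.6 and 7403.0 in klotho-deficient roots and 3682.9, 4068.4 and 2910.2 in wild type. The arrays did not overlap, and klotho-deficient replicate 2 was only slightly above wild-type replicate 2. Its difference was 0.76 ± 0.26 (95% interval 0.14 to 1.38), a 1.69-fold higher signal. Cry1 (1433733_a_at) read 1815.9, 1543.6 and 1886.8 in klotho-deficient roots and 1971.9, 1845.5 and 1659.1 in wild type. The ranges of the genotypes overlapped. The Cry1 difference was -0.06 ± 0.18, and its 95% interval of -0.50 to 0.37 leaves room for differences up to those sizes. The Cry1 sign turned without klotho-deficient replicate 2 (0.02). The difference between the cryptochromes was not tested, since the genotype values had informed the choice of the genes.

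Ciart (1435188_at), which had 3 E-boxes in its promoter window, overlapped between genotypes. Its signals were 456.3, 703.5 and 463.2 in klotho-deficient roots and 406.8, 475.6 and 250.5 in wild type. Wild-type replicate 2 lay above 2 of the klotho-deficient arrays, and without it the genotypes did not overlap. The difference was 0.54 ± 0.32 (95% interval -0.24 to 1.32). Without wild-type replicate 2 it was 0.73, and without wild-type replicate 3 it was 0.27.

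The 2 DEC repressors overlapped as well. Bhlhe40 (1418025_at) read 2277.2, 3130.2 and 6507.6 in klotho-deficient roots and 2269.2, 2500.5 and 3380.9 in wild type, so that its higher klotho-deficient mean rests on replicate 3. The difference was 0.42 ± 0.42, and -0.0038 without that array. Bhlhe41 (1457096_at) read 293.4, 434.7 and 154.7 against 224.5, 256.8 and 370.9 in wild type (-0.04 ± 0.42), and klotho-deficient replicate 3 was below background. Its sign turned under several settings. The other Bhlhe41 probe set, 1421099_at, exceeded background on 1 array only, klotho-deficient replicate 2 at 173.0, and no fold is given for it.

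Over the 8 genes, 6 had a higher mean log2 signal in klotho-deficient roots and 2, Cry1 and Bhlhe41, a lower one, with a median difference of 0.65 beside 0.00 over all genes. Per1, Per2, Per3 and Cry2 were higher without overlap, 4 of 8, where 6.63% of all genes were; 0 were lower without overlap, where 6.84% of all genes were. Over probe sets the count was 9 of 16, where 5.96% of all probe sets were. Since this contrast was known when the genes were chosen, nothing is read from these shares. With limma and Benjamini-Hochberg adjustment over all 18193 genes, 0 of the 8 passed 0.05, and 0% of all genes passed. Adjusted p ran from 0.643 for Per3 to 0.992 for Bhlhe41. At an unadjusted p under 0.05 there were 4 of the 8 (Per1, Per2, Per3 and Cry2), where 6.41% of all genes passed.

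The 3 klotho-deficient pools did not rank alike across the genes. Replicate 3 was the lowest klotho-deficient array on all 6 Per3 probe sets and all 3 Per2 probe sets. The same array was the highest of the 3 for Per1, Cry1, Cry2 and Bhlhe40, and the lowest for Bhlhe41. Replicate 2 was the highest for Ciart and for 5 of the 6 Per3 probe sets, and the lowest for Cry1 and Cry2. In wild type, replicate 3 was the lowest array on 5 of 6 Per3 probe sets and for Cry1, Cry2 and Ciart, and the highest for Per1, Bhlhe40 and Bhlhe41. Probe sets of 1 gene read the same RNA and are not replicates of the condition.

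**Figure D3:**
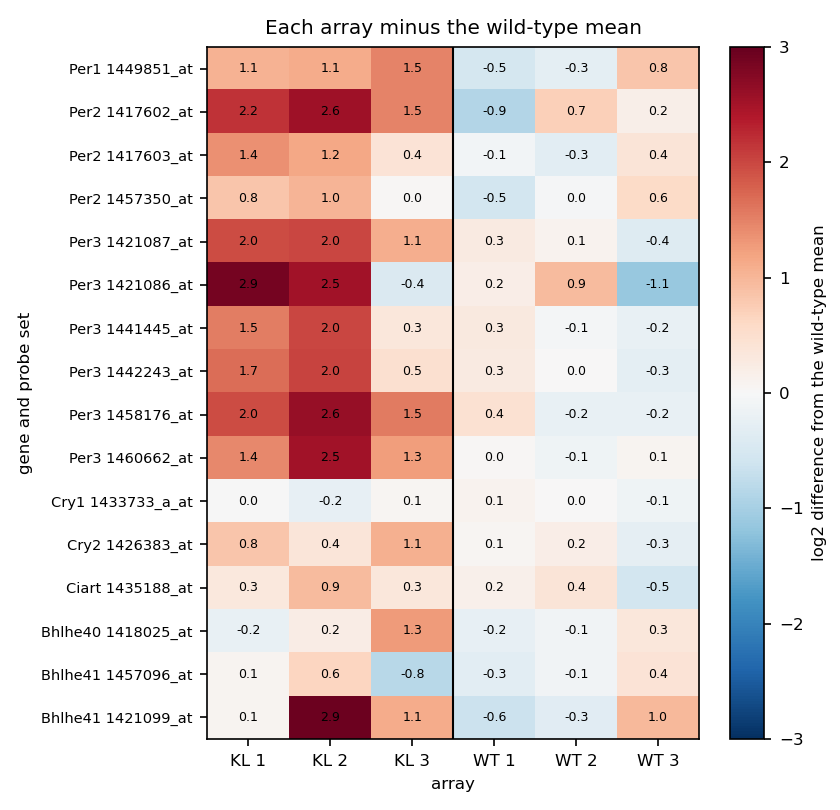
Log2 signal of each array minus the wild-type mean of the same probe set, for 16 probe sets in rows and 6 arrays in columns, klotho-deficient (KL) left of wild type (WT). The Per3 rows are red in klotho-deficient replicates 1 and 2 and paler in replicate 3, where 1421086_at is slightly blue, while the Per1, Cry2 and Bhlhe40 rows are reddest in replicate 3.

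Nearest neighbours were listed for the 4 genes without overlap. For each, all 13314 other genes with a mean above background were ranked by the root mean square difference of log2 profiles over the 6 arrays, after centring each gene on its own mean. The nearest to Per1 was Mt1, a zinc-binding metallothionein, at 0.09. Mt1 read 13187.2, 12578.2 and 15824.5 in klotho-deficient roots and 3717.2, 4239.1 and 10385.2 in wild type, and it shared with Per1 the high value of wild-type replicate 3. Slc10a6, a transporter of sulphated steroids, and the dopamine receptor gene Drd1 followed at 0.18 and 0.23. The nearest to Per3 was Nr1d2, a Rev-erb receptor of the clock, at 0.17, with signals of 9611.6, 11009.6 and 7553.5 against 3597.1, 3560.2 and 2386.6 in wild type. It shared with Per3 the low values of replicate 3 in both genotypes. Next came Gabre, a GABA receptor subunit, and Atcay, at 0.29 and 0.30.

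Cry2 lay nearest to Rere, a transcriptional corepressor, at 0.07, then to the kinase genes Prkd1 and Pik3cb at 0.09 and 0.10. Per2 had no neighbour as close, the first being the DNA helicase gene Blm at 0.27, followed by Gm20740 and Hif3a at 0.46 and 0.48. The wild-type means of Blm and Gm20740 were 109.3 and 123.2, below background. These genes passed the filter on mean signal through their klotho-deficient arrays, and their distances rest partly on dim signals. Dbp, the clock output gene, ranked 6 for Per2, 124 for Per3, 5041 for Per1 and 12860 for Cry2. This measure counts size as well as shape, and the profiles share the same 6 arrays. Genes whose differences are unlike in size therefore tend to have unlike neighbours and unlike Dbp ranks.

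**Figure D4:**
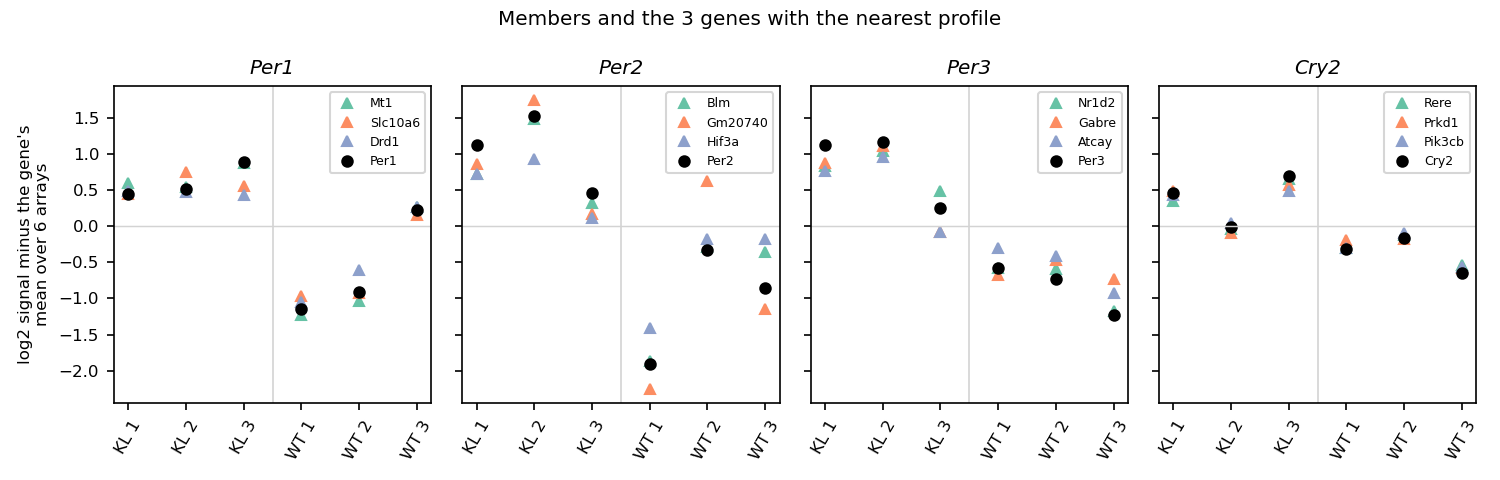
Log2 signal minus each gene's mean over the 6 arrays, for Per1, Per2, Per3 and Cry2 (black circles) and the 3 other genes with the nearest profile (triangles), klotho-deficient (KL) left of wild type (WT). The Per1 panel has wild-type replicate 3 well above the other wild-type arrays, at 0.22, while the Per3 panel has it lowest, at -1.22.

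The other clock genes are given for comparison. Of 12 measured, 8 had a higher mean and 4 a lower one, with a median of 0.32, and 0 passed over all genes. Without overlap, 5 were higher (6.63% of all genes) and 2 lower (6.84% of all genes). The activator Arntl read 623.6, 501.2 and 965.4 in klotho-deficient roots and 1369.8, 1455.1 and 1444.8 in wild type (-1.08 ± 0.27). Npas2, one of its partners, was -0.85 ± 0.27, also without overlap, while Arntl2 was 0.45 ± 0.27. Dbp, which is bound at D-boxes, read 7232.5, 7722.1 and 7837.9 against 1269.9, 1350.9 and 1401.6 in wild type, with little spread within a genotype. Its relative Tef was 1.09 ± 0.27, and Nfil3, which represses through D-boxes, was -0.51 ± 0.28. The Rev-erb genes Nr1d1 and Nr1d2, repressors of Arntl, were 1.26 ± 0.23 and 1.57 ± 0.26.

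**Figure D5:**
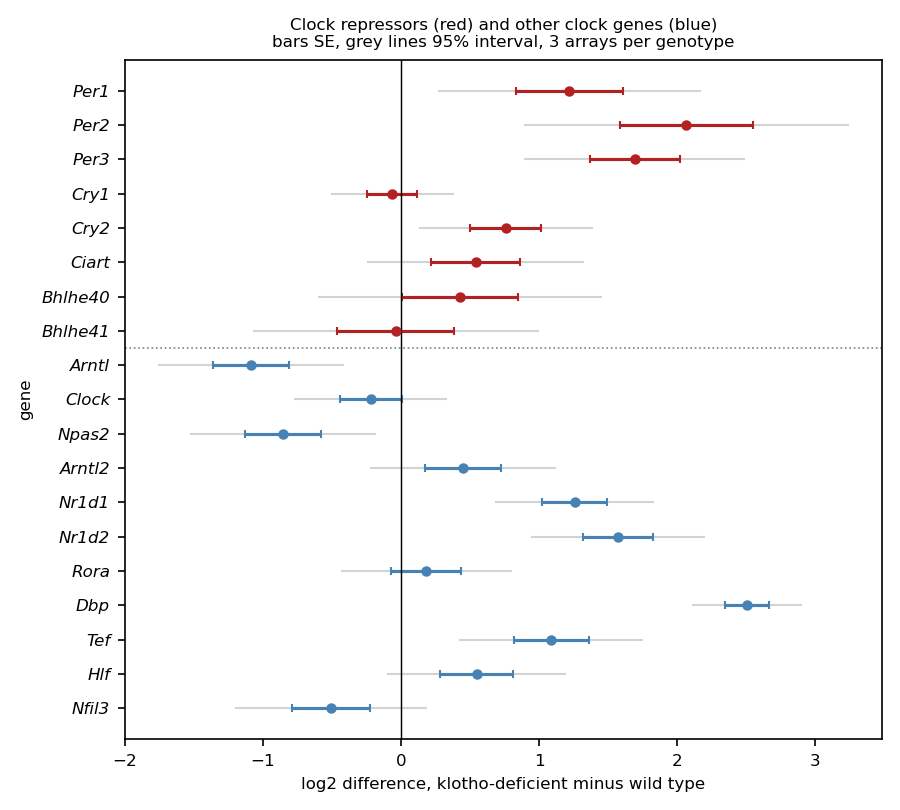
Log2 difference, klotho-deficient minus wild type, for the 8 clock repressors (red) and 11 other clock genes (blue; Rorb, below background, is left out). Points are differences, capped bars the limma standard error and grey lines the 95% interval, with 3 arrays per genotype. Among the red points, the intervals of Per1, Per2, Per3 and Cry2 lie above 0.

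Genes whose products set the stability of period and cryptochrome proteins were examined next. Of 13 measured kinases, phosphatase subunits, ubiquitin ligases and deubiquitinases, 0 passed over all genes, with a median of 0.11. Fbxl21, a ligase component that acts on cryptochromes, read 246.3, 295.2 and 408.6 in klotho-deficient roots and 203.6, 190.0 and 177.5 in wild type, close to background (0.70 ± 0.24). Usp7, a deubiquitinase, was 0.36 ± 0.18. Btrc, the ligase component that recognises phosphorylated period proteins, was -0.20 ± 0.21, and Ppp1ca, a catalytic phosphatase subunit, was -0.17 ± 0.21. Among 7 measured partners, 0 passed and the median was 0.01. Tipin was 0.31 ± 0.18 and Cul1 0.11 ± 0.18, while Timeless was -0.13 ± 0.24 and Nono -0.10 ± 0.18.

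Signals that can induce Per1 or Per2 were read through their other targets and, for glucocorticoids, also through the receptor gene Nr3c1. Of these genes, 0 passed over all genes. In the cyclic AMP and serum route, 7 of 8 measured genes had a higher mean, with a median of 0.29. Nr4a1, an immediate early nuclear receptor, read 2179.4, 1771.7 and 4858.0 in klotho-deficient roots and 1083.4, 563.3 and 1498.0 in wild type, and its highest array was the one highest for Per1. Junb was 0.58 ± 0.22 at a dim signal, and Crem was -0.14 ± 0.25. In the glucocorticoid route all 6 genes had a higher mean, with a median of 0.33. Among them Nr3c1 was only 0.01 ± 0.23, and every gene except Zbtb16 overlapped between genotypes. Zbtb16, a glucocorticoid-induced zinc finger factor, read 8451.0, 7402.5 and 6288.2 against 2083.2, 2439.2 and 3625.6 in wild type, again with wild-type replicate 3 highest in its group. Fkbp5 was 1.42 ± 0.62 with overlap.

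Of 4 genes measured in the temperature route, Cirbp, a cold-inducible RNA-binding protein, was 1.32 ± 0.31 and the heat shock protein gene Hsph1 was -1.04 ± 0.23, each without overlap. Hspa1a and Hspa1b, the inducible forms of HSP70, were 0.07 ± 0.50 and -0.14 ± 0.45. Among 9 measured E-box outputs outside the core loop, 4 had a higher and 5 a lower mean, with a median of -0.01. Nampt, the rate-limiting enzyme of NAD salvage, was 0.64 ± 0.19 and Lonrf3 0.50 ± 0.22. Gys2, a glycogen synthase, was -0.47 ± 0.18 at a dim signal, and Leo1 was -0.22 ± 0.19. None of these lists had a gene past the threshold, and 0% of all genes passed.

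Kl itself was close to background on all arrays (-0.04 ± 0.23) and does not check the labels. All 5 smooth muscle and all 6 fibroblast and valve interstitial markers were above background on every array, and their summed signals overlapped between genotypes. Summed signals of 5 T cell and thymus markers were 2390.0 to 3992.1 in klotho-deficient roots and 4780.9 to 5831.9 in wild type. That sum is mostly Thy1, at 2077.0 to 3819.6 against 4111.7 to 5269.4, the 1 marker above background throughout. Cd3e, Cd4, Cd8a and Rag1 each overlapped between genotypes. Summed signals of 6 endothelial markers, all above background, were 19180.5 to 23533.5 against 23216.6 to 40354.2. The 4 mesothelial markers summed to 14656.2 to 26240.1 against 25792.3 to 42042.4, and both sums were highest on wild-type replicate 3. The 4 cartilage markers summed to 2749.5 to 15264.6 against 3066.8 to 3862.3, highest on klotho-deficient replicate 3. The part of these markers in the values of the clock repressors was not tested.

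Y-linked transcripts were below background on klotho-deficient replicates 2 and 3 and above it on the other 4 arrays, so by these transcripts the pools were not matched for sex. Xist, a transcript of female cells, was high on every array, from 19873.8 to 36290.2. The 4 arrays with Y-linked transcripts therefore held RNA of both sexes by these readings, in shares that are not known. Klotho-deficient replicate 1, which had Y-linked transcripts as the wild-type pools did, lay above every wild-type array for Per1, Per2, Per3 and Cry2. That position was fixed by the lack of overlap in these genes and adds nothing to it. The part of sex in the differences was not tested. A covariate marking arrays that lack Y-linked transcripts takes up the other 2 klotho-deficient arrays, so its estimate is replicate 1 alone minus the wild-type mean. On that array, with no replicate of its own, the difference was 1.05 for Per1, 1.97 for Per3, 0.32 for Ciart and -0.23 for Bhlhe40.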

How the data were processed

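Per the values, the authors deposited intensities on a linear scale for 45101 probe sets, with each array scaled to a common trimmed mean. The submitters' processing notes name RMA without a version. The deposited arrays share a trimmed mean of 1500.01 but not a common distribution, with medians of 425.6 to 556.6. They therefore do not look like plain RMA output. For the step that made these values, the method is not given in these sources. Intensities were taken to log2 with no pseudocount. Platform annotation gave 1 gene to 34945 probe sets, and for each of 18193 genes the probe set of highest mean log2 intensity was kept. The genotype fit used limma 3.58.1 under R 4.3.3 (lmFit, eBayes, Benjamini-Hochberg, threshold 0.05), tested on simulated data. All pools are separate samples of 3 mice, so p-values measure variation among pools. Precision is limited by the number of arrays. The gene group and all comparison lists were chosen with earlier results of these data known. From each list the text names up to 2 genes per direction with the smallest p, plus Arntl, Dbp, Nr1d1 and Fkbp5, and 3 nearest profiles per gene without overlap. Listed genes with no probe set of their own in the annotation were not analysed here. Alternatives were another scaling, an offset, a filter on dim genes, another variance prior, array weights, other probe set summaries, a replicate block, a covariate for Y-linked transcripts, and each array left out. Figures were drawn with matplotlib 3.10.9.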

Additional observations from a re-analysis of the deposited data

How the results depend on the processing

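Per1, Per2, Per3, Cry2 and Ciart kept a positive difference under the 9 other settings and with each of the 6 arrays left out. Of these, the dim gene filter, the other variance prior and the replicate block cannot change a difference. For genes without overlap, leaving out an array cannot turn the sign. Leaving aside the Y-linked covariate, which rests on 1 klotho-deficient array, 0 of the 8 genes passed over all genes in any of them. The count of genes higher without overlap was 3 after median centring, without Per1, where 5.98% of all genes were. Without wild-type replicate 2 it was 5, with Ciart, where 10.9% of all genes were. It was 4 in every other setting. Leaving out an array cannot lower this count, and settings that change only the fit cannot move it. Leaving out an array moved the median difference between 0.607 and 0.797, and array weights gave 0.500. Signs turned for Bhlhe41 with array weights (0.21), with the mean of its probe sets (0.67), which takes in a probe set below background in all wild-type arrays, with the Y-linked covariate (0.080), without klotho-deficient replicate 3 (0.36) and without wild-type replicate 3 (0.17); for Bhlhe40 with that covariate (-0.23) and without klotho-deficient replicate 3 (-0.0038); and for Cry1 without klotho-deficient replicate 2 (0.024). The cause was not tested. The Y-linked covariate leaves klotho-deficient replicate 1 as the only array of its genotype, assumed to vary like the others. No difference is given for probe set 1421099_at, below background in all wild-type arrays. With single arrays left out, Cry1 ran from -0.131 to 0.024, Bhlhe40 from -0.0038 to 0.754 and Bhlhe41 from -0.382 to 0.364. Over all genes, 1 was called higher with an offset of 100, with dim genes left out and with array weights, each time Dbp. With the trended and robust prior there were 2, Dbp and Sphk2. Leaving out arrays gave 0 called higher throughout and 0 to 1 called lower. The 1 called lower was the Y-linked gene Eif2s3y, without klotho-deficient replicate 1, the only klotho-deficient array with Y-linked transcripts. The labels do not say whether replicate numbers pair the pools. Deviations from the genotype means correlated at 0.17, -0.01 and 0.16 for pools that share numbers 1 to 3. For pools with unlike numbers they correlated at -0.20 to 0.07. With the replicate block 0 of the 8 genes and 0 of all genes passed. The median difference stayed at 0.649, since a block in this balanced design cannot move the differences. Standard errors with the block fell for Per1, Per2, Per3, Ciart and Bhlhe40 and rose for Cry1, Cry2 and Bhlhe41. Dim probe sets, such as 1421086_at and 1421099_at, limit what can be read for their genes.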
